A study of Homo sapiens with 12 samples.

Results

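Genes of glycolysis and of the transcriptional response to low oxygen were read in the human embryonic stem cell line H7 during directed differentiation into cardiomyocytes. The list named 44 gene symbols by function, and 43 of them are among the 17096 genes listed for every library. CA9 was not analysed here. The 43 members are 4 membrane transporters of glucose and lactate, 17 enzymes that turn glucose into pyruvate and lactate, 4 regulatory kinases, 16 other hypoxia-inducible genes and 2 HIF alpha subunits. Every member passed the filter of at least 1 FPKM in at least 2 libraries. The labels give 12 libraries in 6 groups of 2: cells of genotype E2A-/- and wild-type cells, each at day 3 (called cardiac mesoderm cells), day 7 and day 15 (both called cardiomyocytes). The gene E2A is now called TCF3, and its products are transcription factors of the basic helix-loop-helix class (E proteins). All groups come from the one line H7, and the labels give neither the number of clones nor the place of the edit.

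Glycolysis splits glucose into pyruvate in the cytoplasm, and lactate dehydrogenase turns pyruvate into lactate when it does not enter mitochondria. Pluripotent stem cells and early progenitors are known for a high glycolytic rate, and maturing cardiomyocytes for a turn to mitochondrial oxidation. The hypoxia-inducible factors are dimers whose alpha subunits, HIF1A and EPAS1, are hydroxylated and degraded when oxygen is present. When stable they bind the core sequence ACGTG or GCGTG and raise the transcription of glucose transporters, most glycolytic enzymes and many genes of oxygen supply, matrix modification and mitophagy. The alpha subunits are thus controlled largely at the protein level, which was not measured here.

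Values are FPKM (fragments per kilobase of gene, scaled to library size), a unit inferred from the values. TCF3 itself stood at 146 and 148 FPKM in the libraries labelled knockout at day 3, against 179.5 and 149 FPKM in wild type, at 179.9 and 172 FPKM at day 7, against 135 and 138 FPKM in wild type, and at 169.7 and 108 FPKM at day 15, against 74.4 and 98.2 FPKM in wild type. Its log2 changes by limma were -0.15, 0.36 and 0.66 (adjusted p = 0.618, 0.159 and 0.0234), so its mRNA was not shown to be lower on any day and was higher at day 15. The groups are therefore called labelled knockout and wild type, and every direction below rests on those labels. Transcripts of mitochondrial DNA made up 20.2 and 18.5% of the FPKM sum in labelled-knockout libraries at day 7, against 8.55 and 8.14% in wild type. At day 15 they made up 13.9 and 14.3% in labelled knockout, against 26.1 and 26.2% in wild type, and at day 3 18.8 and 17.4%, against 16.9 and 15.7% in wild type. The 9 cardiomyocyte markers summed to 1452 and 1333 FPKM in labelled-knockout libraries at day 7, against 7651 and 7721 FPKM in wild type, and to 4521 and 3753 FPKM at day 15 against 10600.0 and 11591 FPKM in wild type. The 6 mesoderm markers summed at day 3 to 257 and 224 FPKM in labelled-knockout libraries, against 683 and 678 FPKM in wild type. By limma 0 of them were higher and 4 lower that day (9.51% and 14.1% of all genes). KDR went the other way, at 71.4 and 58.0 FPKM in labelled knockout, against 50.4 and 48.8 FPKM in wild type, and was not called. In bulk RNA fewer cells of a type and less RNA per cell cannot be told apart. Nothing states whether replicates came from separate cultures, so p-values measure the spread between these libraries, which may be technical.

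Most members were lower than wild type in labelled-knockout libraries at day 7 and most were higher at day 15, while at day 3 fewer than at either later day passed the test. Changes are log2 changes of FPKM + 1, as labelled knockout over wild type. Errors are SEs from limma, and the threshold is an adjusted p under 0.05 over 16295 genes. At day 3, 17 of 43 members were higher and 2 lower in the labelled-knockout libraries, while 9.51% of all genes tested were higher and 14.1% lower. At day 7, 38 of 43 were lower and 0 higher, with 19.9% of all genes lower and 22.1% higher (42% in either direction). At day 15, 28 were higher and 3 lower, against 18.9% and 16.2% of all genes (35.1% in either direction). The median member change was 0.29, -1.07 and 0.93 at the 3 days, and that of all genes -0.01, 0.06 and 0.03. The split by function was uneven at day 3, where 10 of 16 hypoxia-inducible genes were higher, but 4 of 17 enzymes. It depended on scaling: with scaling to the genes outside mitochondrial DNA the enzymes HK1, GPI, PGK1 and LDHB passed as higher too, as did EGLN3. Scaled to the genes outside mitochondrial DNA, the counts at day 3 were 22 higher and 1 lower, at day 7 32 lower, and at day 15 29 higher and 3 lower, with median member changes of 0.47, -0.87 and 0.93. That scaling raised the share of higher genes among all calls at day 3 to 62.2%, against 40.3% in the values as deposited, and at day 7 to 68.1%, against 52.6%. The share of all genes called under that scaling is not given here.

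**Figure D1:**
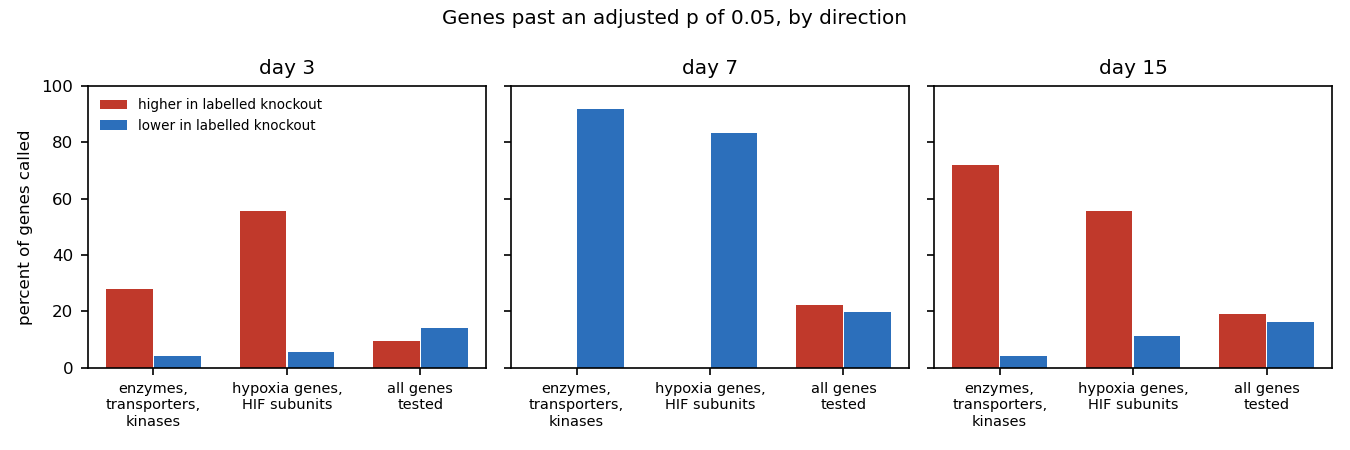
Percent of genes past an adjusted p of 0.05 (vertical axis) that were higher (red) or lower (blue) in labelled-knockout than in wild-type libraries at each day, for 25 enzymes, transporters and kinases, 18 hypoxia genes and HIF subunits, and all 16295 genes tested. Most called members are higher at days 3 and 15, and every called member is lower at day 7.

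A set of 14 members was higher at day 3, lower at day 7 and higher again at day 15, each past the threshold on each day. They are SLC2A1, HK2, PGAM1, ENO2, LDHA, PFKFB3, PFKFB4, BNIP3, EGLN1, ANKRD37, P4HA1, MXI1, DDIT4 and INSIG2. Of all genes tested, 55 (0.338%) had this sequence of calls. For SLC2A1, ENO2, LDHA, PFKFB3, EGLN1, BNIP3 and INSIG2, at least 1 of these calls ended when 1 library was left out. PGK1, lower at day 7 and higher at day 15, passed as higher at day 3 only under either other scaling. Another 11 members were lower at day 7 and higher at day 15 with no call at day 3. With PKM, which was lower at day 3, these were the members lower at day 7 and higher at day 15, as were 456 (2.8%) of all genes. PFKM, VEGFA and EGLN3 passed on no day, as did 34.6% of all genes.

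**Figure D2:**
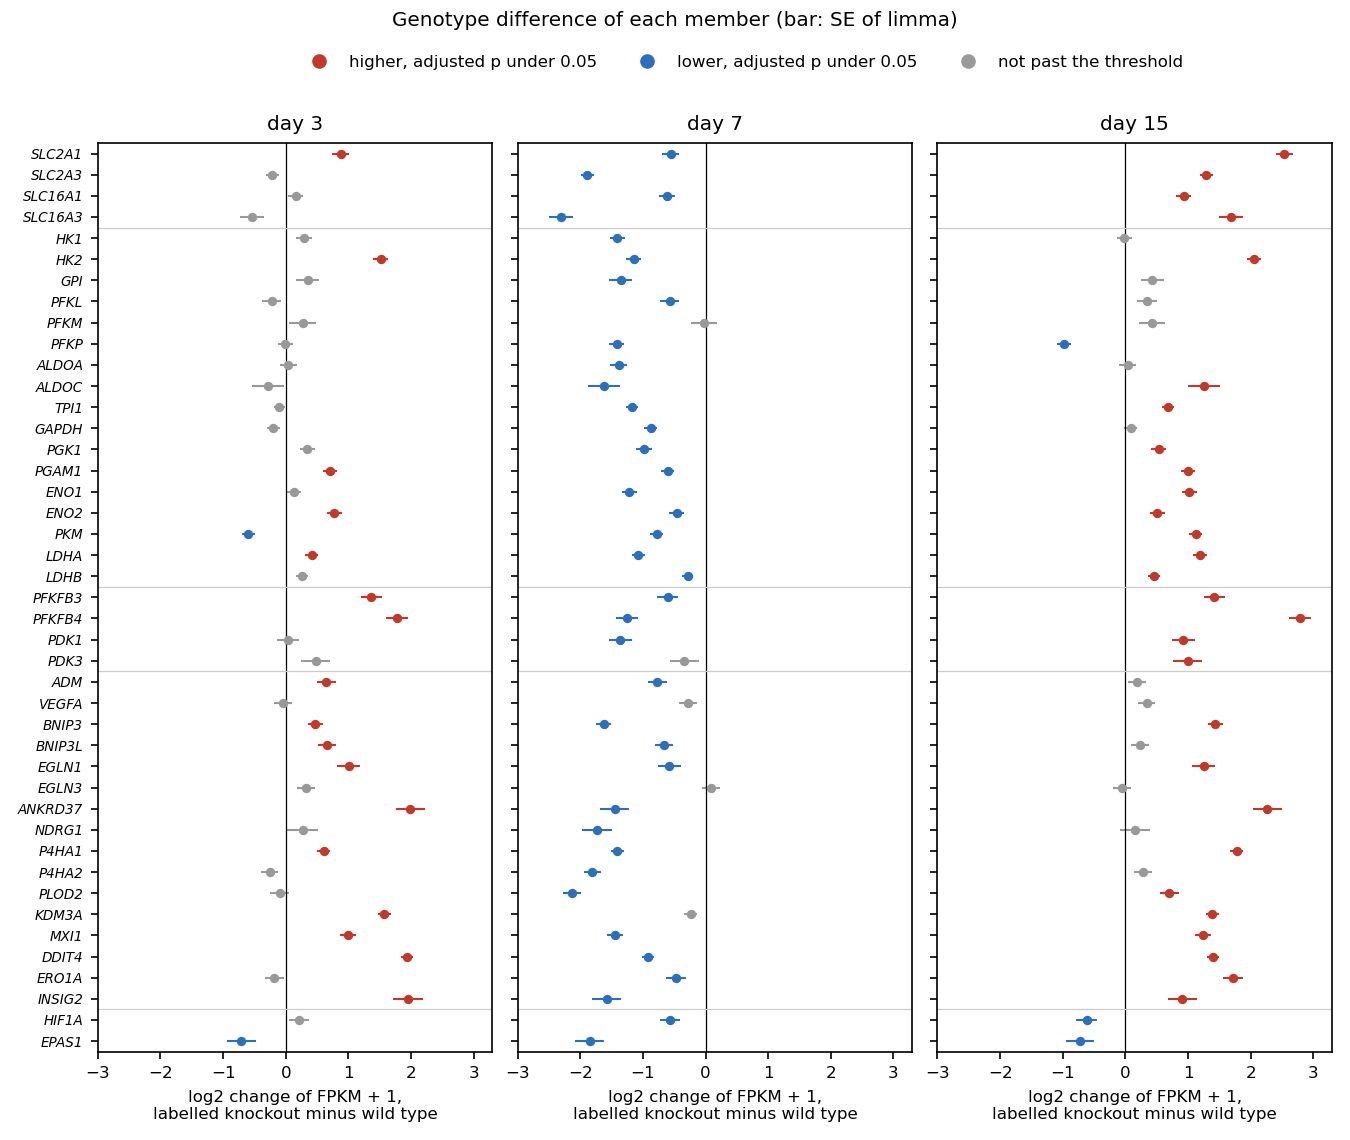
Log2 change of FPKM + 1 (horizontal axis, labelled knockout minus wild type) for each of the 43 members (rows, grouped into transporters, enzymes, regulatory kinases, hypoxia-inducible genes and HIF alpha subunits) at days 3, 7 and 15. Bars are the SE of limma; most points lie left of 0 at day 7 and right of 0 at day 15, and HIF1A and EPAS1 lie left of 0 at both.

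Glucose enters through SLC2A1, the basal transporter (GRCh38 chromosome 1, 42925375 to 42959176, minus strand), and SLC2A3, a high-affinity transporter of neurons and early embryos. SLC2A1 held 416 and 418 FPKM at day 3, 196 and 176 FPKM at day 7, and 533 and 393 FPKM at day 15 in the labelled-knockout libraries. In wild type it held 225 and 228 FPKM at day 3, 259 and 289.9 FPKM at day 7, and 75.2 and 80.9 FPKM at day 15. Its groups did not overlap on any day: the labelled-knockout libraries were the higher at days 3 and 15 and the lower at day 7. The changes were 0.88 (SE 0.14, adjusted p = 0.00145) at day 3, -0.56 (SE 0.14, adjusted p = 0.00832) at day 7 and 2.54 (SE 0.14, adjusted p = 1.57e-06) at day 15. At day 7 the call was lost without wild-type replicate 2 (-0.48) or labelled-knockout replicate 2 (-0.48), and the change was -0.35 with scaling to the genes outside mitochondrial DNA. SLC2A3 held 477 and 443 FPKM at day 3, 627 and 551 FPKM at day 7, and 934 and 831 FPKM at day 15 in the labelled-knockout libraries, against 537 and 533 FPKM at day 3, 2243 and 2122 FPKM at day 7, and 364 and 355 FPKM at day 15 in wild type. Its wild-type libraries at day 7 were the highest of the 12, and SLC2A3 was then second to GAPDH among the members. Against wild type its change was -1.89 at day 7 and 1.29 at day 15, while its change of -0.22 at day 3 did not pass (adjusted p = 0.16).

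Lactate leaves through SLC16A3, the exporter of glycolytic cells, and both lactate and pyruvate move through SLC16A1. SLC16A3 held 248 and 206 FPKM at day 3, 84.6 and 59.6 FPKM at day 7, and 326 and 249.6 FPKM at day 15 in the labelled-knockout libraries and 337 and 319 FPKM at day 3, 349 and 362 FPKM at day 7, and 75.4 and 102 FPKM at day 15 in wild type. Its change at day 7 was the most negative of any member, -2.31 (SE 0.20, adjusted p = 1.72e-05), and it was higher by 1.69 at day 15. At day 3 its change of -0.54 did not pass by limma (adjusted p = 0.0719). It passed as lower there under median-ratio scaling (-0.53) and with a fit on that day alone. SLC16A1 held 334 and 355 FPKM at day 3, 204 and 199 FPKM at day 7, and 119.8 and 108 FPKM at day 15 in the labelled-knockout libraries, against 277 and 343 FPKM at day 3, 302 and 316 FPKM at day 7, and 63.4 and 55.4 FPKM at day 15 in wild type. Its level was lowest at day 15 in both genotypes, with changes of -0.62 at day 7 (-0.41 with scaling to the genes outside mitochondrial DNA) and 0.93 at day 15. All 4 transporters were thus lower at day 7 and higher at day 15.

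**Figure D3:**
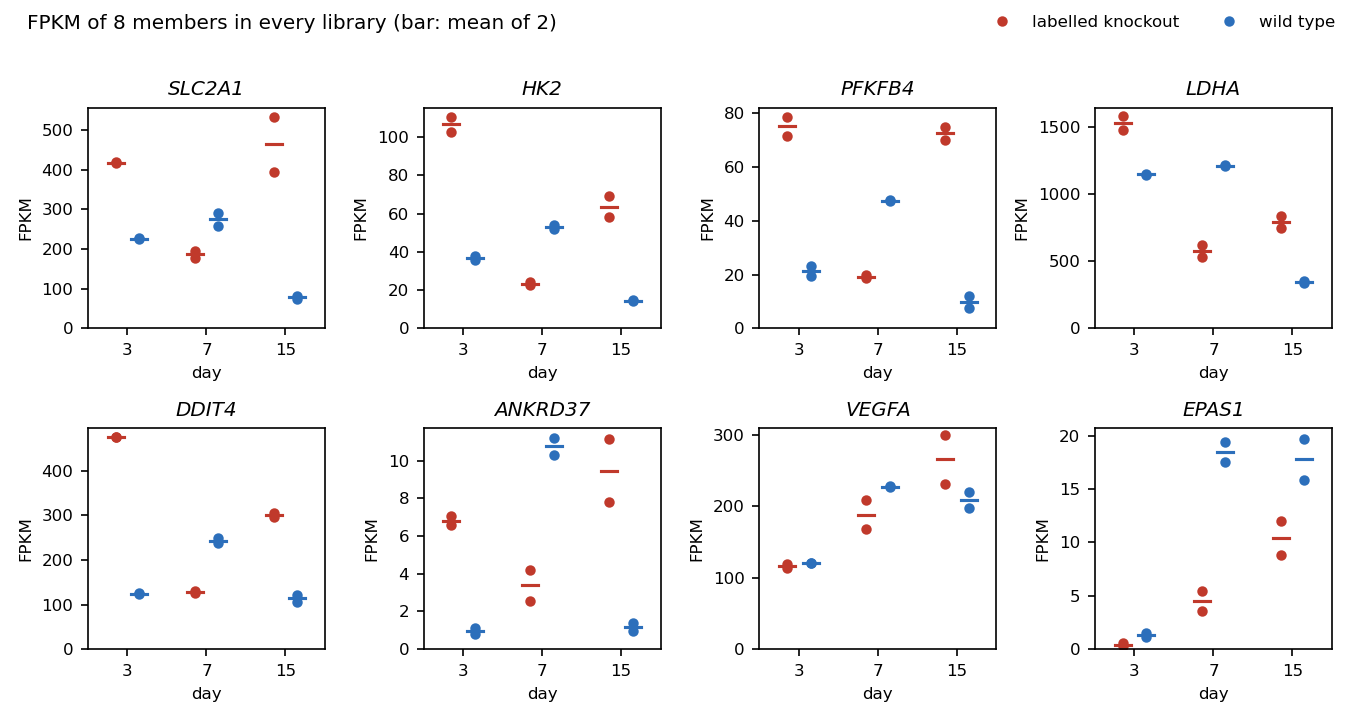
FPKM (vertical axis, from 0) of 8 members at days 3, 7 and 15 in the labelled-knockout (red) and wild-type (blue) libraries; points are libraries and bars the mean of 2. SLC2A1, HK2, PFKFB4, LDHA, DDIT4 and ANKRD37 have red above blue at days 3 and 15 and below it at day 7, while EPAS1 has red below blue on each day.

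Hexokinase commits glucose to the cell. HK2 (chromosome 2, 74833981 to 74893359), the inducible isozyme, held 111 and 103 FPKM at day 3, 24.2 and 22.5 FPKM at day 7, and 69.2 and 58.1 FPKM at day 15 in the labelled-knockout libraries. The wild-type libraries held 35.5 and 37.9 FPKM at day 3, 54.0 and 51.8 FPKM at day 7, and 14.3 and 14.7 FPKM at day 15. On no day did the groups overlap, with changes of 1.51 (SE 0.12, adjusted p = 2.49e-05) at day 3, -1.15 (SE 0.12, adjusted p = 4.46e-05) at day 7 and 2.06 (SE 0.12, adjusted p = 1.97e-06) at day 15. HK1, the isozyme of most adult tissues, held 71.5 and 71.7 FPKM at day 3, 62.3 and 51.0 FPKM at day 7, and 83.9 and 70.6 FPKM at day 15 in the labelled-knockout libraries, against 57.8 and 58.9 FPKM at day 3, 152 and 151 FPKM at day 7, and 76.7 and 79.5 FPKM at day 15 in wild type. HK1 was lower than in wild type at day 7 (-1.41), and its changes of 0.29 and -0.02 at days 3 and 15 did not pass (adjusted p = 0.108 and 0.912), though that at day 3 did with scaling to the genes outside mitochondrial DNA (0.47). HK2 made up 60.8 and 58.9% of the summed FPKM of both in labelled-knockout libraries at day 3, against 38.1 and 39.1% in wild type. At day 15 its share was 45.2 and 45.1% in labelled knockout, against 15.7 and 15.6% in wild type, and at day 7 28.0 and 30.6% against 26.2 and 25.5% in wild type. No test was made on such shares.

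Phosphofructokinase, the main control point of the pathway, is built from PFKL, PFKM and PFKP subunits. PFKP was the one enzyme that was lower in labelled knockout at day 15. It held 75.2 and 77.4 FPKM at day 3, 87.0 and 80.2 FPKM at day 7, and 165 and 134 FPKM at day 15 in the labelled-knockout libraries, against 73.6 and 79.6 FPKM at day 3, 219 and 230.5 FPKM at day 7, and 280.4 and 309 FPKM at day 15 in wild type, changes of -1.42 at day 7 and -0.98 at day 15. Its share of the 3 subunit genes was 52.8 and 48.7% in labelled-knockout libraries at day 15, against 74.2 and 71.6% in wild type. PFKL was lower than in wild type at day 7 (-0.57), which did not hold without wild-type replicate 2 (-0.53) or labelled-knockout replicate 1 (-0.55) and with scaling to the genes outside mitochondrial DNA (adjusted p = 0.0516). PFKM, the muscle subunit, held 60.8 and 82.7 FPKM in labelled-knockout libraries at day 7, against 73.1 and 71.5 FPKM in wild type, and its replicates within labelled knockout lay far apart at day 3 (47.5 and 74.9 FPKM).

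**Figure D4:**
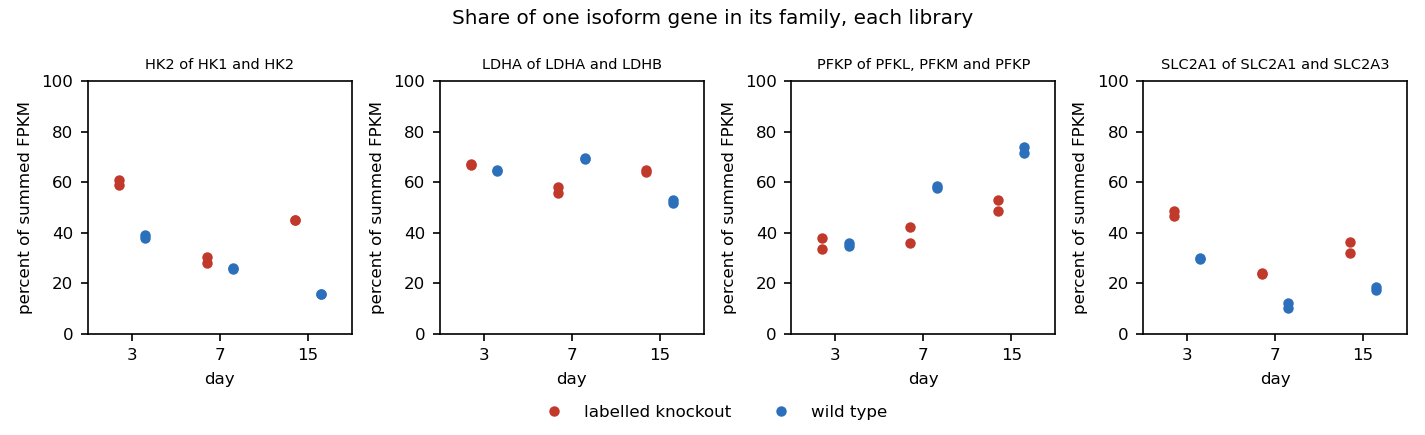
Share of one gene in the summed FPKM of its family (vertical axis, percent) in each library at days 3, 7 and 15, labelled knockout in red and wild type in blue. The HK2 and SLC2A1 shares are higher in labelled knockout on each day, the LDHA share is lower at day 7, and the PFKP share is lower at days 7 and 15.

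The remaining upper enzymes changed at day 7. GPI, which converts glucose phosphate to fructose phosphate, changed by -1.35, ALDOA, the muscle and embryonic aldolase, by -1.38, and ALDOC, the brain aldolase, by -1.62. TPI1, triose phosphate isomerase, held 593 and 588 FPKM at day 3, 344 and 311 FPKM at day 7, and 479 and 448 FPKM at day 15 in the labelled-knockout libraries, against 652 and 614 FPKM at day 3, 732 and 751 FPKM at day 7, and 279.9 and 296 FPKM at day 15 in wild type. Its change at day 7 was -1.18 (SE 0.10, adjusted p = 1.3e-05). At day 15 TPI1 and ALDOC were higher by 0.69 and 1.25, while GPI and ALDOA had changes of 0.43 and 0.04 that did not pass (adjusted p = 0.092 and 0.836). Without labelled-knockout replicate 2 the change of GPI passed (0.75). ALDOC was the least expressed of the enzymes at day 15, with 25.6 and 18.5 FPKM in labelled-knockout libraries and 7.99 and 9.18 FPKM in wild type.

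Lower glycolysis yields ATP and pyruvate, and its genes are among the most abundant members. GAPDH, the dehydrogenase often used as a reference gene, held 2986 and 3279 FPKM at day 3, 1855 and 1943 FPKM at day 7, and 2445 and 2309 FPKM at day 15 in the labelled-knockout libraries, against 3646 and 3535 FPKM at day 3, 3437 and 3526 FPKM at day 7, and 2155 and 2317 FPKM at day 15 in wild type. It was the most abundant member in each group. It was lower than in wild type at day 7 (log2 change -0.87, SE 0.10, adjusted p = 0.00012) and did not pass at days 3 and 15 (-0.20 and 0.09). PGK1, which makes the first ATP, held 489.9 and 557 FPKM at day 3, 185 and 185 FPKM at day 7, and 302 and 236 FPKM at day 15 in the labelled-knockout libraries, against 399 and 422 FPKM at day 3, 371 and 361 FPKM at day 7, and 188 and 182 FPKM at day 15 in wild type. Its changes were 0.35 at day 3, which did not pass (adjusted p = 0.0631) but did under either other scaling, -0.98 at day 7 and 0.53 at day 15. At day 15 the call was lost with a fit on that day alone (adjusted p = 0.0595), and the change was 0.35 without labelled-knockout replicate 1.

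PGAM1, phosphoglycerate mutase, held 621 and 661 FPKM at day 3, 368 and 345 FPKM at day 7, and 429 and 349 FPKM at day 15 in the labelled-knockout libraries, against 391 and 396 FPKM at day 3, 551 and 534 FPKM at day 7, and 188 and 199.9 FPKM at day 15 in wild type. Its changes were 0.70, -0.61 and 0.99 at the 3 days, that at day 7 being -0.40 with scaling to the genes outside mitochondrial DNA. ENO1, the ubiquitous enolase, held 1569.7 and 1624 FPKM at day 3, 821 and 792 FPKM at day 7, and 1341 and 1075 FPKM at day 15 in the labelled-knockout libraries, against 1482 and 1443 FPKM at day 3, 1837 and 1909 FPKM at day 7, and 558 and 626 FPKM at day 15 in wild type. It was lower at day 7 (log2 change -1.21, SE 0.12, adjusted p = 3.6e-05) and higher by 1.02 at day 15. ENO2, the neuronal enolase, held 135 and 138 FPKM at day 3, 69.7 and 69.2 FPKM at day 7, and 53.1 and 43.9 FPKM at day 15 in the labelled-knockout libraries, against 76.2 and 82.3 FPKM at day 3, 97.8 and 93.7 FPKM at day 7, and 31.1 and 36.5 FPKM at day 15 in wild type. It was higher at day 3 (log2 change 0.78, SE 0.12, adjusted p = 0.0014). The call of ENO2 at day 7 (-0.46) ended without wild-type replicate 1 (-0.43) or labelled-knockout replicate 2 (-0.45) and with scaling to the genes outside mitochondrial DNA (adjusted p = 0.0793), and that at day 15 (0.51) ended without wild-type replicate 1 (0.39) and with a fit on that day alone (adjusted p = 0.0837). PKM, pyruvate kinase, held 979 and 1003 FPKM at day 3, 652 and 671 FPKM at day 7, and 935 and 832 FPKM at day 15 in the labelled-knockout libraries, against 1558 and 1442 FPKM at day 3, 1170.2 and 1100.5 FPKM at day 7, and 388 and 423 FPKM at day 15 in wild type. It was the 1 enzyme lower at day 3 (log2 change -0.60, SE 0.10, adjusted p = 0.00239), was lower at day 7 as well (-0.78) and higher at day 15 (1.12). The splice forms of PKM are not separated in these values.

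LDHA (chromosome 11, 18394388 to 18408425) favours the making of lactate, and LDHB, the heart isozyme, its use. LDHA held 1579 and 1474 FPKM at day 3, 618 and 534 FPKM at day 7, and 837 and 746 FPKM at day 15 in the labelled-knockout libraries. In wild type it held 1151 and 1141 FPKM at day 3, 1213 and 1205 FPKM at day 7, and 352 and 339 FPKM at day 15. The changes were 0.41 (SE 0.11, adjusted p = 0.0179) at day 3, -1.07 (SE 0.11, adjusted p = 3.85e-05) at day 7 and 1.19 (SE 0.11, adjusted p = 3.04e-05) at day 15. The first of these calls ended without wild-type replicate 1 (0.42), wild-type replicate 2 (0.41) or labelled-knockout replicate 1 (0.36). LDHB held 783 and 721 FPKM at day 3, 445 and 426 FPKM at day 7, and 451 and 414 FPKM at day 15 in the labelled-knockout libraries, against 636 and 620.4 FPKM at day 3, 536 and 527 FPKM at day 7, and 313 and 317 FPKM at day 15 in wild type. Its changes were smaller: 0.26 at day 3, which did not pass except under either other scaling (0.27 and 0.44), -0.29 at day 7 and 0.46 at day 15. LDHB lost its call at day 7 on leaving out 1 library, whichever of the 4 it was (-0.32 to -0.25) and with scaling to the genes outside mitochondrial DNA (adjusted p = 0.445), limma without the trend (adjusted p = 0.0821) or the replicate block (adjusted p = 0.0817). It lost that at day 15 with a fit on that day alone (adjusted p = 0.0664). LDHA held 58.1 and 55.6% of the summed FPKM of both genes in labelled-knockout libraries at day 7, against 69.4 and 69.6% in wild type, and 65.0 and 64.3% at day 15, against 53.0 and 51.7% in wild type. Many of these enzymes have near-identical processed pseudogenes, and how reads with several placements were counted is not given in the sources used here.

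The regulatory kinases set the flow through the pathway. PFKFB3 and PFKFB4 make and remove the sugar bisphosphate that activates phosphofructokinase. PFKFB4 (chromosome 3, 48517684 to 48562015, minus strand) held 78.5 and 71.6 FPKM at day 3, 18.7 and 19.8 FPKM at day 7, and 74.9 and 70.2 FPKM at day 15 in the labelled-knockout libraries. The wild-type libraries held 23.2 and 19.4 FPKM at day 3, 47.3 and 47.6 FPKM at day 7, and 7.62 and 12.002 FPKM at day 15. Its change of log2(FPKM + 1) at day 15, 2.80 (SE 0.18, adjusted p = 3.77e-06), was the most positive of any member that day, after 1.77 at day 3 and -1.26 at day 7. PFKFB3 held 52.2 and 46.0 FPKM at day 3, 26.7 and 19.0 FPKM at day 7, and 61.6 and 49.6 FPKM at day 15 in the labelled-knockout libraries, against 18.1 and 18.6 FPKM at day 3, 34.6 and 34.9 FPKM at day 7, and 18.7 and 21.4 FPKM at day 15 in wild type. Its changes were 1.37, -0.60 and 1.42, and the call at day 7 ended without wild-type replicate 1 (-0.61), wild-type replicate 2 (-0.59) or labelled-knockout replicate 2 (-0.37).

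PDK1 and PDK3 phosphorylate and switch off pyruvate dehydrogenase, which keeps pyruvate out of the citric acid cycle. PDK1 held 126 and 121 FPKM at day 3, 62.0 and 46.0 FPKM at day 7, and 131 and 97.5 FPKM at day 15 in the labelled-knockout libraries, against 135 and 108 FPKM at day 3, 146 and 131 FPKM at day 7, and 63.1 and 55.3 FPKM at day 15 in wild type. It did not pass at day 3 (0.03, adjusted p = 0.919), was lower than in wild type at day 7 (log2 change -1.36, SE 0.18, adjusted p = 0.000234) and higher at day 15 (log2 change 0.93, SE 0.18, adjusted p = 0.0029). PDK3, the least expressed of the kinases, held 14.4 and 11.2 FPKM at day 3, 6.68 and 6.10 FPKM at day 7, and 9.11 and 5.72 FPKM at day 15 in the labelled-knockout libraries, against 8.42 and 9.24 FPKM at day 3, 8.37 and 8.30 FPKM at day 7, and 3.95 and 2.46 FPKM at day 15 in wild type. It was higher at day 15, by 0.99. That call ended without wild-type replicate 2 (0.74) or labelled-knockout replicate 1 (0.70).

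The other hypoxia-inducible genes include DDIT4, an inhibitor of mTOR signalling that other stresses also induce. DDIT4 (chromosome 10, 72273920 to 72276036) held 477 and 477 FPKM at day 3, 131 and 127 FPKM at day 7, and 306 and 296 FPKM at day 15 in the labelled-knockout libraries. In wild type it held 123 and 126 FPKM at day 3, 239 and 248 FPKM at day 7, and 106 and 122 FPKM at day 15. The changes were 1.93 (SE 0.10, adjusted p = 2.88e-06), -0.91 (SE 0.10, adjusted p = 5.48e-05) and 1.40 (SE 0.10, adjusted p = 6.21e-06) at days 3, 7 and 15. ANKRD37, a small ankyrin repeat protein, held 6.60 and 7.06 FPKM at day 3, 2.55 and 4.21 FPKM at day 7, and 7.82 and 11.2 FPKM at day 15 in the labelled-knockout libraries, against 1.13 and 0.826 FPKM at day 3, 10.3 and 11.2 FPKM at day 7, and 0.938 and 1.39 FPKM at day 15 in wild type. At day 3 it had the largest change of any member (log2 change 1.99, SE 0.23, adjusted p = 0.000257), at low levels where log2(FPKM + 1) understates the fold. The changes at days 7 and 15 were -1.45 and 2.27, with the fold understated there as well. KDM3A, a histone demethylase that needs oxygen, held 34.9 and 33.7 FPKM at day 3, 19.0 and 18.2 FPKM at day 7, and 37.2 and 37.8 FPKM at day 15 in the labelled-knockout libraries, against 10.6 and 11.1 FPKM at day 3, 21.9 and 22.3 FPKM at day 7, and 13.8 and 13.5 FPKM at day 15 in wild type. It was higher than in wild type at day 3 (log2 change 1.58, SE 0.11, adjusted p = 1.43e-05) and day 15 (1.39), and its change of -0.24 at day 7 did not pass (adjusted p = 0.104) except under median-ratio scaling (-0.31).

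The sequences before the RefSeq transcription starts of 6 members are shown because they place the HIF core motif beside the values above. Each is the run of 250 bases that ends at the start of the RefSeq transcript on GRCh38.p14, written in the direction of the gene, with each match to ACGTG or GCGTG on either strand in capitals. SLC2A1, HK2, LDHA, ANKRD37 and DDIT4 stand for members with the higher, lower, higher sequence, and EGLN3 for those called on no day. The windows are chr1:42958869-42959118 (minus strand), chr2:74833877-74834126, chr11:18394313-18394562, chr4:185396591-185396840, chr10:72273674-72273923 and chr14:33951075-33951324 (minus strand), in the order of the lines. They were picked after the values were seen. The gene places of this text are from GENCODE, and by them all or part of each window lies within the gene. HK2 starts there at 74833981, LDHA at 18394388, ANKRD37 at 185396021 and DDIT4 at 72273920. On the minus strand SLC2A1 starts at 42959176 and EGLN3 at 34462774.
SLC2A1: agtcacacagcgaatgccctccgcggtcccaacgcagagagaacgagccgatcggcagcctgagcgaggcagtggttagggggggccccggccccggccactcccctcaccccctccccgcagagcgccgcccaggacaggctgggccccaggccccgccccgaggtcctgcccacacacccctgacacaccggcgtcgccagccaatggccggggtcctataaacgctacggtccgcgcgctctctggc
HK2: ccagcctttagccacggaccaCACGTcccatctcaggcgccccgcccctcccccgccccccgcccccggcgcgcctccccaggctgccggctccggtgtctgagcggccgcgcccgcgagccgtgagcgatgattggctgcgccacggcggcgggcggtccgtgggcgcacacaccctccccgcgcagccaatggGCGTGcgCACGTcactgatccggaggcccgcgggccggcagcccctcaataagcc
LDHA: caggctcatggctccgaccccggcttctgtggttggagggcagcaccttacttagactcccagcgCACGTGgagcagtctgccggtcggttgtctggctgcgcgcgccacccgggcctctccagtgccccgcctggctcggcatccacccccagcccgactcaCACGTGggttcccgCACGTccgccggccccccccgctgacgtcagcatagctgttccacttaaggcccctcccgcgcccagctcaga
ANKRD37: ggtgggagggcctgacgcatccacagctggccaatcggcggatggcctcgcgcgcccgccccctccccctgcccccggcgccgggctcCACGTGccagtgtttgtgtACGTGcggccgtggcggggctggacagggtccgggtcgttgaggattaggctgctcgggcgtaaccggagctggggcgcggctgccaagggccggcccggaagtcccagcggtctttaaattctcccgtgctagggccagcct
DDIT4: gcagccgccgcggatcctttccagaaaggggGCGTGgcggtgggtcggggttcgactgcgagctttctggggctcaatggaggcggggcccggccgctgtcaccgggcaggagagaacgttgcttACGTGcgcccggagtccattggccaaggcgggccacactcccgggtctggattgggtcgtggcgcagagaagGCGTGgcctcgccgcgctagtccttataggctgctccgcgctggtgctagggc
EGLN3: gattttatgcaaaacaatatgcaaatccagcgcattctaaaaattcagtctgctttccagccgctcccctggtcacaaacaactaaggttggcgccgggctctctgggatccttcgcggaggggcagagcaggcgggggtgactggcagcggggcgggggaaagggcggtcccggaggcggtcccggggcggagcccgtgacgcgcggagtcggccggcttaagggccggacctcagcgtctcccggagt
HK2 had 3 matches, LDHA 5, ANKRD37 3 and DDIT4 3, and SLC2A1 and EGLN3 had 0 in these windows. A run of CACGTG, which is also an E-box, counts once on each strand, and LDHA holds it at 2 places and ANKRD37 at 1. Promoters were matched for 38 members, leaving SLC2A3, SLC16A1, VEGFA, BNIP3L and NDRG1. Of the 14 members with the higher, lower, higher sequence, 11 (78.6%) had a match, as had 14 of the 24 others (58.3%), 57.1% of the 10910 promoters of genes tested and 43.1% of all 27305 promoters. For ACGTG alone these shares were 64.3% (9 of 14), 33.3% (8 of 24), 23.2% and 18.7%. The members were listed as glycolytic or hypoxia-inducible genes, and the 14 by their calls in these data. These shares are therefore no independent test. Median G and C content was 70.8% in the 14, 68.4% in the 24 and 65.2% in the promoters of genes tested, which bears on how often such letters occur. E-boxes preferred by E proteins, CAGCTG and CAGGTG, each stood in 5 of the 38 member windows (13.2%), and in 13.8% and 17.5% of all promoters. The E-box shares in the promoters of genes tested are not given here, so the members have no like background for them.

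Hypoxia-inducible genes also act in mitochondrial removal, collagen modification and oxygen sensing. BNIP3, a mitophagy receptor, held 199.9 and 197 FPKM at day 3, 41.7 and 43.966 FPKM at day 7, and 124 and 149 FPKM at day 15 in the labelled-knockout libraries, against 144 and 142 FPKM at day 3, 134 and 135 FPKM at day 7, and 45.7 and 53.8 FPKM at day 15 in wild type. Its changes were 0.47 (SE 0.12, adjusted p = 0.0148) at day 3, -1.63 (SE 0.12, adjusted p = 6.29e-06) at day 7 and 1.44 (SE 0.12, adjusted p = 1.77e-05) at day 15. BNIP3 lost its call at day 3 on leaving out 1 library, whichever of the 4 it was (0.46 to 0.48). Its relative BNIP3L had the same directions at days 3 and 7 (0.66 and -0.67) and did not pass at day 15. The call of BNIP3L at day 3 ended without wild-type replicate 1 (0.56) or labelled-knockout replicate 1 (0.55). P4HA1, a catalytic subunit of collagen prolyl hydroxylase, held 98.0 and 96.9 FPKM at day 3, 49.8 and 46.3 FPKM at day 7, and 68.4 and 77.9 FPKM at day 15 in the labelled-knockout libraries, against 64.0 and 63.3 FPKM at day 3, 129 and 129 FPKM at day 7, and 21.3 and 19.9 FPKM at day 15 in wild type. P4HA1 changed by 0.61 (SE 0.10, adjusted p = 0.00229), -1.41 (SE 0.10, adjusted p = 7.2e-06) and 1.78 (SE 0.10, adjusted p = 2.25e-06) at the 3 days. Its paralogue P4HA2 held 17.1 and 17.2 FPKM at day 3, 11.7 and 10.9 FPKM at day 7, and 18.5 and 16.2 FPKM at day 15 in the labelled-knockout libraries, against 20.5 and 20.9 FPKM at day 3, 41.0 and 43.1 FPKM at day 7, and 12.3 and 16.0 FPKM at day 15 in wild type. P4HA2 changed by -1.81 at day 7 and did not pass at days 3 and 15. PLOD2, which hydroxylates collagen lysines, held 74.2 and 74.3 FPKM at day 3, 19.6 and 16.2 FPKM at day 7, and 50.7 and 62.6 FPKM at day 15 in the labelled-knockout libraries, against 82.9 and 76.2 FPKM at day 3, 80.4 and 82.8 FPKM at day 7, and 38.5 and 30.4 FPKM at day 15 in wild type. At day 7 it had the most negative change of the 16 genes (log2 change -2.13, SE 0.15, adjusted p = 5.39e-06), and at day 15 it was higher by 0.70.

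EGLN1 and EGLN3 encode prolyl hydroxylases that mark HIF alpha subunits for degradation. EGLN1 held 27.8 and 26.2 FPKM at day 3, 12.7 and 8.49 FPKM at day 7, and 29.2 and 30.5 FPKM at day 15 in the labelled-knockout libraries, against 14.1 and 11.9 FPKM at day 3, 16.3 and 15.8 FPKM at day 7, and 13.5 and 10.5 FPKM at day 15 in wild type. Its changes were 1.01, -0.58 and 1.25, and the call at day 7 ended without wild-type replicate 1 (-0.56), wild-type replicate 2 (-0.60) or labelled-knockout replicate 2 (-0.31) and with scaling to the genes outside mitochondrial DNA (adjusted p = 0.105) or a fit on that day alone (adjusted p = 0.0605). EGLN3 held between 9.71 and 16.8 FPKM in the labelled-knockout libraries and between 9.92 and 16.0 FPKM in wild type, and its changes of 0.33, 0.08 and -0.05 did not pass, except that at day 3 with scaling to the genes outside mitochondrial DNA (0.49). VEGFA, the vascular growth factor and a classical hypoxia gene, held 119 and 113 FPKM at day 3, 208 and 167 FPKM at day 7, and 299.5 and 232 FPKM at day 15 in the labelled-knockout libraries, against 119.8 and 120.1 FPKM at day 3, 227 and 228 FPKM at day 7, and 197 and 219.8 FPKM at day 15 in wild type. Both labelled-knockout libraries lay below both wild-type libraries at days 3 and 7 and above them at day 15. None of its changes passed (-0.05, -0.28 and 0.34, adjusted p = 0.852, 0.129 and 0.0831). Median-ratio scaling brought the change at day 7 past the threshold (-0.36). At day 15 it passed with scaling to the genes outside mitochondrial DNA (0.34) and without labelled-knockout replicate 2 (0.52).

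Of the remaining hypoxia-inducible genes, MXI1, an antagonist of MYC, held 41.2 and 45.5 FPKM at day 3, 59.8 and 49.5 FPKM at day 7, and 77.8 and 65.7 FPKM at day 15 in the labelled-knockout libraries, against 21.7 and 20.7 FPKM at day 3, 152 and 147 FPKM at day 7, and 29.9 and 29.3 FPKM at day 15 in wild type. It changed by 1.00, -1.44 and 1.24 at the 3 days. INSIG2, which holds back sterol synthesis in the endoplasmic reticulum, held 26.2 and 23.8 FPKM at day 3, 4.77 and 5.65 FPKM at day 7, and 12.1 and 19.3 FPKM at day 15 in the labelled-knockout libraries, against 5.82 and 5.61 FPKM at day 3, 21.6 and 14.2 FPKM at day 7, and 8.55 and 6.90 FPKM at day 15 in wild type. It was higher at day 3 (log2 change 1.95, SE 0.24, adjusted p = 0.000337), changed by -1.58 at day 7 and 0.91 at day 15, which did not hold without wild-type replicate 2 (0.78) or labelled-knockout replicate 2 (0.60). ADM, the vasodilator adrenomedullin, was higher at day 3 (0.65) and lower at day 7 (-0.77). The call of ADM at day 3 ended without wild-type replicate 1 (0.57) or labelled-knockout replicate 2 (0.56). NDRG1, a stress-induced gene, held 4.31 and 6.78 FPKM at day 3, 11.7 and 8.62 FPKM at day 7, and 17.7 and 11.5 FPKM at day 15 in the labelled-knockout libraries, against 4.73 and 3.96 FPKM at day 3, 33.4 and 38.0 FPKM at day 7, and 11.970 and 13.4 FPKM at day 15 in wild type. NDRG1 was lower than in wild type at day 7 (-1.73), and ERO1A, an oxidase of protein folding, was higher at day 15 (1.72). ERO1A was also lower at day 7 (-0.46), which did not hold on leaving out 1 library, whichever of the 4 it was (-0.57 to -0.35) and with scaling to the genes outside mitochondrial DNA (adjusted p = 0.182), limma without the trend (adjusted p = 0.0552) or the replicate block (adjusted p = 0.0696).

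Both HIF alpha subunit transcripts were lower in labelled knockout at days 7 and 15. HIF1A (chromosome 14, 61695513 to 61748259) held 53.2 and 51.5 FPKM at day 3, 41.3 and 47.2 FPKM at day 7, and 44.1 and 64.9 FPKM at day 15 in the labelled-knockout libraries. In wild type it held 42.7 and 47.5 FPKM at day 3, 68.0 and 63.7 FPKM at day 7, and 85.8 and 79.8 FPKM at day 15. Its change of 0.21 at day 3 did not pass (adjusted p = 0.378), and it was lower at day 7 (log2 change -0.57, SE 0.16, adjusted p = 0.0172) and at day 15 (log2 change -0.62, SE 0.16, adjusted p = 0.0135). HIF1A lost its call at day 7 without wild-type replicate 1 (-0.52), wild-type replicate 2 (-0.61) or labelled-knockout replicate 1 (-0.47) and with scaling to the genes outside mitochondrial DNA (adjusted p = 0.124). It lost that at day 15 without wild-type replicate 1 (-0.57) or labelled-knockout replicate 1 (-0.35) and with a fit on that day alone (adjusted p = 0.0628). EPAS1, the subunit of endothelial and other specialised cells (chromosome 2, 46293667 to 46386703), held 0.267 and 0.570 FPKM at day 3, 5.43 and 3.54 FPKM at day 7, and 12.1 and 8.85 FPKM at day 15 in the labelled-knockout libraries, against 1.10 and 1.53 FPKM at day 3, 17.6 and 19.4 FPKM at day 7, and 15.9 and 19.7 FPKM at day 15 in wild type. On each day both labelled-knockout libraries lay below both wild-type libraries, with changes of -0.71 (SE 0.23, adjusted p = 0.0468), -1.85 (SE 0.23, adjusted p = 0.000155) and -0.72 (SE 0.23, adjusted p = 0.0318). The call at day 7 held under each alternative run. At day 3 the change was -1.496 with a pseudocount of 0.1, and the call was lost on leaving out 1 library, whichever of the 4 it was (-0.86 to -0.55) and with scaling to the genes outside mitochondrial DNA (adjusted p = 0.0602), no filter (adjusted p = 0.0503), the replicate block (adjusted p = 0.0814) or a fit on that day alone (adjusted p = 0.0688). At day 15 it was lost without wild-type replicate 1 (-0.87), wild-type replicate 2 (-0.57) or labelled-knockout replicate 2 (-0.52) and with a pseudocount of 0.1 (adjusted p = 0.0964), the replicate block (adjusted p = 0.0562) or a fit on that day alone (adjusted p = 0.0527). The 5 endothelial markers summed to 38.7 and 37.6 FPKM in labelled-knockout libraries at day 7, against 82.9 and 80.6 FPKM in wild type, and to 47.9 and 40.5 FPKM at day 15, against 24.9 and 20.1 FPKM in wild type. Of these 5 markers, 0 were higher and 4 lower at day 7 (22.1% and 19.9% of all genes). At day 15, 3 were higher and 0 lower (18.9% and 16.2% of all genes). Of the sums at day 7, EGFL7 alone held 25.4 and 25.5 FPKM in labelled knockout, against 40.4 and 46.0 FPKM in wild type. The part of these markers in the EPAS1 values was not tested.

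In wild type more members rose than fell up to day 7, and most fell after it. From day 3 to day 7, 21 of 43 rose and 2 fell (21.1% and 22.6% of all genes). EPAS1 rose by 3.08, NDRG1 by 2.78, MXI1 by 2.76, SLC2A3 by 2.03, PFKP by 1.54 and HK1 by 1.36. HIF1A rose by 0.54, a call that ended without wild-type replicate 1 at day 3 (0.46) and without wild-type replicate 1 (0.49) or 2 (0.59) at day 7. From day 7 to day 15, 34 fell and 2 rose (26.8% and 25.5% of all genes, 52.3% in either direction). The falls included all 4 transporters, 15 of 17 enzymes and 11 of 16 hypoxia-inducible genes. P4HA1 changed by -2.59, SLC2A3 by -2.60, SLC16A1 by -2.36, MXI1 by -2.30, PFKFB4 by -2.19, HK2 by -1.80, LDHA by -1.80 and PDK1 by -1.22. PFKP (0.39) and EGLN3 (0.52) rose. Both steps share the day 7 libraries, so a high or low value there enters them with opposite signs.

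In labelled knockout most members fell up to day 7 and most rose after it. From day 3 to day 7, 32 of 43 fell and 4 rose (11.4% and 17.3% of all genes). BNIP3 changed by -2.19, HK2 by -2.15, PFKFB4 by -1.91, DDIT4 by -1.88, SLC16A3 by -1.65, LDHA by -1.41, PDK1 by -1.20 and SLC2A1 by -1.16. EPAS1 rose by 1.94 (3.18 with a pseudocount of 0.1). From day 7 to day 15, 31 rose and 2 fell (13.3% and 15.1% of all genes). SLC16A3 rose by 1.99, PFKFB4 by 1.86, BNIP3 by 1.65, HK2 by 1.41, SLC2A1 by 1.30, PFKFB3 by 1.26, DDIT4 by 1.22, EPAS1 by 1.07 and PFKP by 0.83. SLC16A1 (-0.82) and ENO2 (-0.51) fell. The call of EPAS1 ended without labelled-knockout replicate 2 at day 7 (0.82). A fit on these 4 libraries alone called 17 members, 16 higher and 1 lower. The share of all genes called in that fit is not given here. The labelled-knockout libraries at day 15 varied most between replicates of the 6 groups (pooled SD 0.323 in log2 units, and 0.208 to 0.267 in the other groups).

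**Figure D5:**
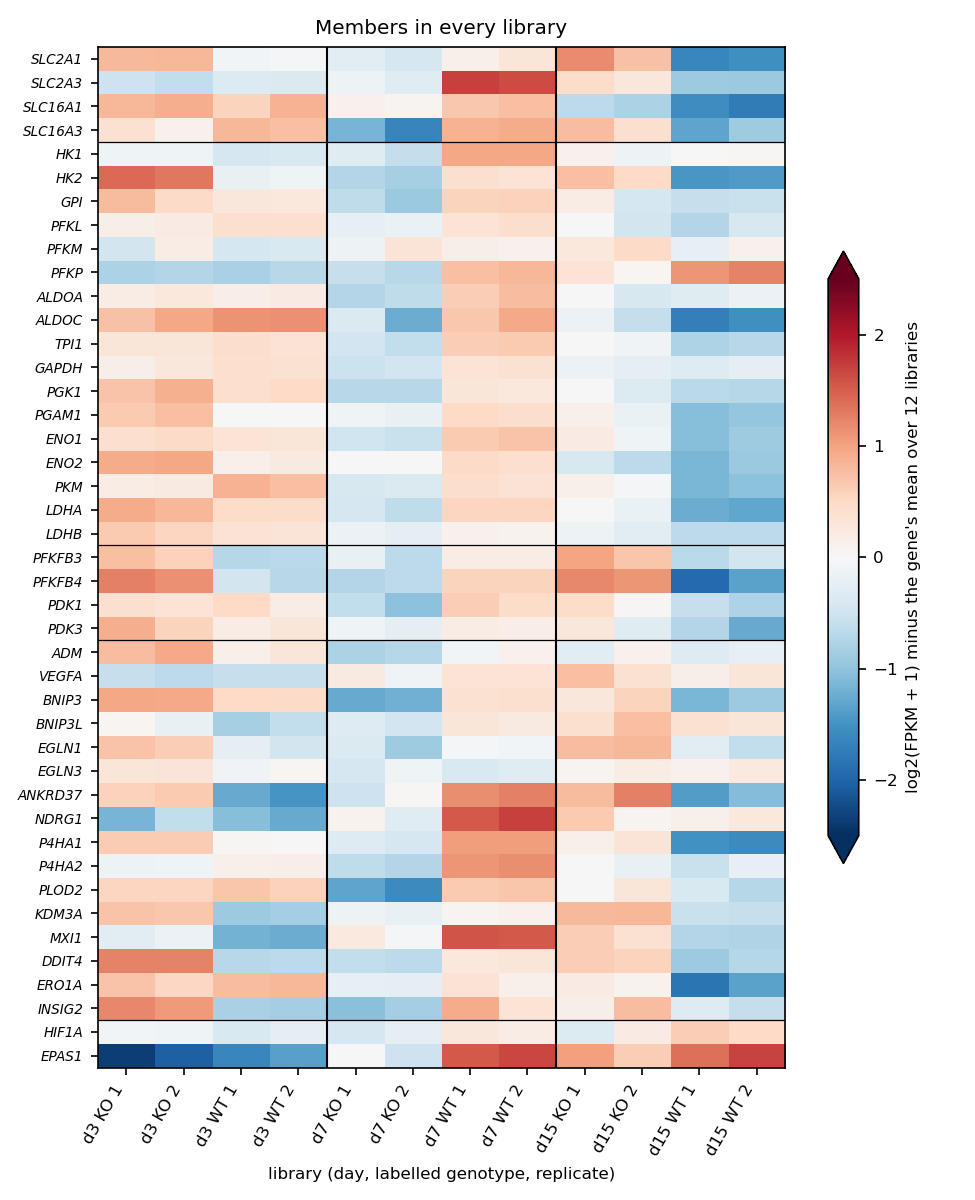
Log2(FPKM + 1) of the 43 members (rows) in the 12 libraries (columns, day, labelled genotype and replicate), each minus the gene's mean over all libraries. Most rows are below their mean in the labelled-knockout libraries of day 7 and in the wild-type libraries of day 15, and above it in the wild-type libraries of day 7.

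Whether the genotype difference itself changed between days was tested as a difference of differences. Between days 3 and 7 it moved downward for 36 of 43 members and upward for 0 (8.9% and 11.3% of all genes). Between days 7 and 15 it moved upward for 39 and downward for 0 (16.6% and 15.2% of all genes). Both tests use the day 7 libraries. The median member difference was -1.41 and then 1.86, with 0.09 and -0.01 for all genes. Transporters moved together, 4 of 4 downward and then 4 of 4 upward, and so did 14 and 15 of 17 enzymes and 13 and 15 of 16 hypoxia-inducible genes. On the log2(FPKM + 1) scale INSIG2 had the largest shift between days 3 and 7 (log2 change -3.53, SE 0.33, adjusted p = 9.76e-05). PFKFB4 had the largest between days 7 and 15 (log2 change 4.05, SE 0.25, adjusted p = 5.64e-06). ANKRD37, at low levels where that scale understates the fold, shifted by -3.44 and 3.72. PKM (-0.18) and VEGFA (-0.24) did not pass in the first of these tests (adjusted p = 0.409 and 0.433).

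The sums over each group give the size of these shifts in levels. The 17 enzymes summed to 11844 and 12182 FPKM in labelled-knockout libraries at day 3, 6489.7 and 6417 FPKM at day 7 and 9163 and 7898 FPKM at day 15. Wild-type libraries held 11892 and 11646 FPKM, 12630.0 and 12899 FPKM and 5981 and 6431 FPKM on those days. The 16 hypoxia-inducible genes summed to 1287 and 1272 FPKM, 661 and 594 FPKM and 1183 and 1165 FPKM in labelled knockout on those days, against 733 and 736 FPKM, 1239 and 1242 FPKM and 602 and 644 FPKM in wild type. Of the latter sums at day 3, DDIT4 alone held 477 and 477 FPKM in labelled knockout, against 123 and 126 FPKM in wild type. At day 3 the summed FPKM of the enzymes overlapped between genotypes and that of the hypoxia-inducible genes did not. As shares of the genes outside mitochondrial DNA, the enzymes did not overlap at day 3 either. They held 2.18 and 2.27% in labelled knockout, against 1.95 and 1.91% in wild type.

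Other genes of the pathway, listed by function with earlier results known, were read in the same fit. Over all genes tested, 9.51% were higher and 14.1% lower at day 3 (23.6% in either direction), 22.1% and 19.9% at day 7, and 18.9% and 16.2% at day 15. Of 25 further hypoxia-inducible genes, 11 were higher and 3 lower in labelled knockout at day 3, 2 higher and 13 lower at day 7, and 11 higher and 4 lower at day 15, with median changes of 0.44, -0.53 and 0.35. FAM162A, a mitochondrial protein, was higher at day 3 (1.26) and lower at day 7 (-2.43), and STC2, a secreted glycoprotein, was higher at days 3 and 15 (1.24 and 1.06). ZNF395, a zinc finger factor, was lower at day 7 (-0.53) and higher at day 15 (1.91). LOX, lysyl oxidase of the matrix, was lower on each day (-2.22, -1.93 and -0.79). PPP1R3C, which targets phosphatase to glycogen, was lower at days 7 and 15 (-2.15 and -2.21).

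Of all genes tested, 23.6%, 42% and 35.1% were called in either direction at days 3, 7 and 15. Of 17 other glycolysis and branch genes, 1 was higher and 2 lower at day 3, 0 higher and 11 lower at day 7, and 3 higher and 4 lower at day 15. PYGM, the muscle glycogen phosphorylase, was higher at day 3 (1.03) and lower at day 7 (-2.13), and PGM1, phosphoglucomutase, was lower at day 7 (-1.84) and higher at day 15 (0.59). TIGAR, a phosphatase that lowers glycolysis, was lower at days 3 and 15 (-0.85 and -0.84), and FBP1, a gluconeogenic phosphatase, at days 7 and 15 (-1.28 and -1.46). The share of all genes that was lower was 14.1%, 19.9% and 16.2% on those days. Of 11 genes of pyruvate entry and use in mitochondria, regulators among them, 0 were higher and 1 lower at day 3. At day 7, 1 was higher and 6 lower, and at day 15, 0 higher and 6 lower. Regulators account for some of these calls: PDP1 was the 1 higher at day 7 (0.69). PDK2, a relative of PDK1 and PDK3, was among those lower at day 15 (-0.86). MPC2, of the mitochondrial pyruvate carrier, was lower on each day (-0.41, -1.56 and -0.39). PDHA1, a subunit of pyruvate dehydrogenase, changed by -0.73 and -1.07 at days 7 and 15, DLAT, another, by -0.90 and -0.80, and MPC1, the partner of MPC2, by -1.28 and -0.94.

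Of 13 genes of the HIF machinery, 1 was higher and 2 lower at day 3, 6 higher and 4 lower at day 7, and 6 higher and 4 lower at day 15. Against 23.6%, 42% and 35.1% of all genes called on those days, the 3 calls of 13 at day 3 lie at the general rate. CITED2, which competes with HIF for its coactivators and is itself inducible, was higher on each day (1.19, 0.41 and 0.67). VHL, the ubiquitin ligase subunit that recognises hydroxylated HIF alpha, was higher at days 7 and 15 (0.68 and 0.76), and its partner ELOB was lower on each day (-0.50, -0.98 and -0.50). CREBBP, a coactivator, was higher at day 7 (1.46), and ARNT2, a partner of the alpha subunits in neurons, was lower at day 3 (-0.48) and higher at days 7 and 15 (1.10 and 0.56).

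Markers of other cells differed in the same comparisons, in some lists in both directions. Over all genes tested, 22.1% were higher and 19.9% lower at day 7, and 18.9% and 16.2% at day 15. Of 4 pluripotency markers tested (4 of 5 listed), 1 was higher and 1 lower in labelled knockout at day 15. Their sum was 425 and 378 FPKM in labelled-knockout libraries that day, against 113 and 131 FPKM in wild type, with LIN28A higher (2.46), TDGF1 lower (-2.25) and POU5F1 and DPPA4 not past the threshold. Neural markers (6 of 7 listed, 5 tested, 3 higher and 0 lower) summed at day 7 to 461 and 444 FPKM in labelled knockout, against 259 and 264 FPKM in wild type. Proliferation genes (5 tested, 3 higher and 0 lower) summed at day 7 to 319 and 333 FPKM in labelled knockout, against 214 and 212 FPKM in wild type. At day 15 endoderm markers (4 of 6 listed and tested, 0 higher and 3 lower) summed to 31.2 and 33.1 FPKM in labelled knockout, against 133 and 153 FPKM in wild type, and smooth muscle markers (4 tested, 0 higher and 4 lower) to 427 and 355 FPKM, against 1784 and 1944 FPKM in wild type. Epithelial keratins and adhesion genes (5 tested, 0 higher and 4 lower) summed at day 7 to 2972 and 2228 FPKM in labelled knockout, against 7858 and 7872 FPKM in wild type. Fibroblast markers (2 of 5 listed and tested, both lower) summed at day 7 to 359.6 and 292 FPKM in labelled knockout, against 579 and 550.3 FPKM in wild type, and none of the 5 blood markers is among the genes analysed here. Of the 9 cardiomyocyte markers, 9 were lower at day 7, and 1 was higher and 5 lower at day 15. Some lists differed on other days. At day 3 neural markers had 4 higher and 1 lower (9.51% and 14.1% of all genes). At day 15 proliferation genes had 2 higher and 1 lower, epithelial genes 1 higher and 2 lower, and fibroblast markers 0 higher and 0 lower. The part of these cells in the glycolysis and hypoxia values was not tested.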

How the data were processed

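RNA of 12 libraries was extracted with Trizol and sequenced, per the labels' protocols. The deposited values are FPKM per gene, a unit inferred from values that are not whole and sum to between 577716 and 734958. BWA and hg38 (GRCh38) are named in the submitters' processing notes. For the counting program, annotation and strand setting the sources used here give nothing. Fitting whole fragments to low values of single-transcript genes put library depth between 6840000 and 22020000 fragments, but left 45.0% to 71.4% of values within 0.1 of whole. Counts were therefore not rebuilt, and no counting intervals are given. Replicates correlated across genes at 0.973 to 0.990 and shared no identical value.

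The test was limma 3.58.1 (R 4.3.3) with trend on log2(FPKM + 1), 6 group means, all 12 libraries, a filter of 1 FPKM in 2 or more libraries (16295 genes kept, 801 left out), two-sided, with Benjamini-Hochberg adjustment over all genes. It gave 9 contrasts, and the code was tested on simulated data. Places are from GENCODE 29 (GRCh38), and promoters from RefSeq (GRCh38.p14). The members, lists and rules were chosen with earlier results of these data known. By rule the text gives 12 fixed members and, per function group, the called members of smallest adjusted p (up to 4 per genotype contrast and 2 in others); further members were added after their values were seen. Values of some genes in the other pathway lists are not reported here. Alternatives were 2 scalings, 2 filters, a pseudocount of 0.1, no trend, the compared groups alone, a replicate block and leaving out each library.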

Additional observations from a re-analysis of the deposited data

Results flagged for a closer look

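In a test of the difference itself, the genotype difference changed for 36 members from day 3 to day 7. It changed for 39 from day 7 to day 15. Those tests called 20.2% and 31.7% of all genes, in either direction. The shift from day 3 to day 7 was -1.67 for SLC2A3 and -1.44 for SLC2A1 among transporters, -2.66 for HK2 and -1.70 for HK1 among enzymes, and -3.03 for PFKFB4 and -1.97 for PFKFB3 among kinases. It was -2.84 for DDIT4, -2.02 for P4HA1, -1.14 for EPAS1 and -0.78 for HIF1A. From day 7 to day 15 it was 3.18 for SLC2A3, 3.10 for SLC2A1, 3.21 for HK2, 2.26 for LDHA, 4.05 for PFKFB4 and 2.29 for PDK1. It was 3.19 for P4HA1, 3.07 for BNIP3 and 1.13 for EPAS1. Each of these is on the log2(FPKM + 1) scale with an adjusted p under 0.05 by limma.

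Among these, the HIF subunits lost calls when a library was left out. That of HIF1A ended on leaving out any library of days 3 and 7 except labelled-knockout replicate 2 at day 7 (-0.69 to -0.86). That of EPAS1 between days 3 and 7 ended on leaving out wild-type replicate 1 (-1.01) or 2 (-1.28) or labelled-knockout replicate 2 (-0.99) at day 3, or wild-type replicate 1 (-1.21) or 2 (-1.07) or labelled-knockout replicate 2 (-0.89) at day 7. Between days 7 and 15 it ended without wild-type replicate 1 (1.20) or 2 (1.06) or labelled-knockout replicate 2 (0.88) at day 7, or replicate 1 of wild type (0.98) or labelled knockout (0.92) at day 15.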

How the results depend on the processing

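Counts of called members stayed within 1.5 times of those given under every alternative except 1: the fit on the compared groups alone called 17 members, against 33, between days 15 and 7 in labelled knockout. Leaving out 1 library at a time gave 14 to 16, 31 to 34 and 28 to 32 called members between genotypes at days 3, 7 and 15. For day 7 against day 3 and day 15 against day 7 it gave 30 to 34 and 25 to 33 in labelled knockout, and 18 to 21 and 34 to 36 in wild type. For the change of the genotype difference it gave 32 to 35 and 37 to 40. The replicate block gave 18, 36 and 30 members between genotypes. The labels do not say whether the replicate numbers pair the libraries. Deviations of same-numbered libraries correlated at 0.04, 0.02 and -0.12 across genes at the 3 days. These values show no pairing across all genes, but cannot decide whether some genes share a batch. Crossing the numbers at day 15, chosen after seeing the data, called 32 members there. The share of all genes called in these alternative runs is not given here, so the counts have no background beside them.

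Signs reversed for VEGFA at day 3 with scaling to the genes outside mitochondrial DNA (0.13), PDK1 at day 3 without wild-type replicate 2 (-0.13, in a range up to 0.19 over libraries left out), and HK1 at day 15 without wild-type replicate 2 (0.0058) or labelled-knockout replicate 2 (0.10, in a range from -0.14); none passed the threshold either way, and the cause was not tested. For the 8 to 22 members that the naming rule picks in each comparison, 1420 values under an alternative kept direction and call, 72 lost a call and 8 gained one. Members named outside that rule are not in this tally. Scaling to the genes outside mitochondrial DNA moved the median of all genes by 0.14 at day 3 and 0.16 at day 7 between genotypes, by 0.15 from day 7 to 15 in wild type and by -0.16 for the later change of the genotype difference. It set the share of higher genes among all calls to 60.1%, against 48.7%, from day 7 to 15 in wild type, and to 37.7%, against 52.2%, for the later change of the genotype difference. The other pathway and marker lists were read in 1 fit, with no alternative run on them. Fragment depth could not be fixed, so differences of low genes are given with no counting error.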
